A study of Mus musculus with 47 samples.

Results

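Kidneys of female and male CAST/EiJ mice were compared by RNA sequencing. CAST/EiJ is an inbred strain derived from wild Mus musculus castaneus mice. The comparison used every library labelled CAST/EiJ, 8 from females (F) and 7 from males (M), which made 15 of the 47 libraries of the series. The other 32 libraries came from the inbred strains C57BL/6J and NZO/HlLtJ, 16 of each and 8 from each sex, on the same diets. Among the CAST/EiJ libraries, 4 from females and 3 from males were on the diet with 10% fat and fiber, and 4 from females and 4 from males on the diet with 44% fat and fiber, which the series describes as high in fat and sugar. All mice were wild type, started their diet at 6 weeks of age and gave tissue at 15 weeks. The tissue label was metanephros, the definitive kidney. Only genes on autosomes (chromosomes 1 to 19) are described, and every difference is female minus male on the log2 scale, as the mean of the 2 diets. The labels do not say that each library came from a separate animal, so p-values measure the spread between these libraries, which may in part be technical.

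The kidney filters blood at the glomerulus, where podocytes form the filter, and then recovers solutes along the nephron. The proximal tubule, with its S1, S2 and S3 segments, takes up sugars, amino acids, phosphate and organic ions, and also carries much of the organ's drug-metabolizing machinery. In mice this tubule is the main site of sex-biased expression, and androgen acting through its receptor in proximal tubule cells is known to raise many genes there, while growth hormone and prolactin signalling also differ between the sexes. The loop of Henle, distal tubule and collecting duct further downstream adjust salt, water and acid.

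The sex labels held in all 15 libraries. Xist, the RNA of the inactive X chromosome, was at 863 to 1151 CPM (read counts scaled to the library total, with TMM factors for its composition) in females, against 1.19 to 2.43 CPM in males. The Y-linked genes Ddx3y, Kdm5d, Eif2s3y and Uty stayed at or below 0.0702 CPM in females and at or above 23.6 CPM in males. Total counts ran from 39.9 M to 52.3 M in females and from 36.4 M to 48.0 M in males, and mitochondrial genes took 12.7% to 13.4% of them in females and 11.1% to 14.1% in males. The first principal component carried 60.5% of the variance among these libraries and separated the sexes without overlap. One female library on 44% fat, replicate 1, stood apart: its summed CPM over 14 tubular injury genes was 3245, against 1461 to 2044 in the other females, and over 6 urothelium genes 35.3 against 5.27 to 9.97. The kidney markers Nphs1, Slc34a1, Umod, Slc12a3 and Atp6v1b1 were all expressed, whereas the summed levels of 8 hepatocyte genes reached 14.7 CPM in females and 17.9 CPM in males at most.

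About as many genes were higher in females as were lower. Of 18195 autosomal genes tested, 8658 (47.6%) passed an adjusted p under 0.05 in edgeR's quasi-likelihood F test with Benjamini-Hochberg adjustment, the test behind every adjusted p given here. Of them, 4284 (23.5% of those tested) were higher in females and 4374 (24%) lower. Most differences were small, and 5613 of the called genes differed by less than 0.5. At least a 2-fold change was called for 1042 genes (5.73%), 569 higher (3.13%) and 473 lower (2.6%). The CPM ranges of the sexes did not overlap for 3118 genes (17.1%), 1183 with females above males (6.5%) and 1935 with males above females (10.6%). The split depends on how libraries are scaled: TMM factors were 1.003 to 1.079 in females and 0.890 to 0.961 in males, and with scaling to total counts alone, tried after these factors were seen, the median over all genes moved by 0.15, from 0.05 to 0.20, and 77.3% of calls were higher in females, against 49.5%. The sample ID numbers fall into 3 runs (77, 81 and 89), whose meaning the labels do not give, and each holds 2 or 3 libraries of each sex. Within each run alone, 2118, 5160 and 4303 genes were called. In run 77 each sex had 1 library per diet, so the spread there came from NZO/HlLtJ pairs and the CAST/EiJ libraries were assumed to vary alike.

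The differences with the widest span separated the sexes in every library, and several of these genes were close to silent in one sex. Hdc, histidine decarboxylase, which makes histamine, lies on chromosome 2 (GRCm38, 126593667 to 126619299, minus strand) and had the highest difference. It was at 144 to 583 CPM (median 322) in females, against 0.149 to 0.343 CPM (median 0.203) in males, a log2 difference of 10.50 ± 0.50 (SE) with an edgeR adjusted p of 8.24e-19. Serpina6, which encodes corticosteroid-binding globulin, was at 263 to 792 CPM (median 445) in females, against 0.390 to 1.07 CPM (median 0.820) in males. Ugt1a2, a UDP-glucuronosyltransferase, was at 675 to 924 CPM (median 786) in females, against 1.40 to 9.58 CPM (median 2.91) in males. No male library came near any female library for these 3 genes, and the fitted differences of Serpina6 and Ugt1a2 were 9.23 ± 0.34 and 7.83 ± 0.29 (SE).

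Mpped1, a metallophosphoesterase gene on chromosome 15 (83779467 to 83858494, plus strand), had no count in any of the 8 female libraries and 13.9 to 25.3 CPM (median 16.8) in males. With a floor of 3 counts over the female group, its level was at least 2214-fold lower in females. Slco1a1, an uptake transporter of organic anions known to depend on androgen in mouse kidney, was at 0.0468 to 0.279 CPM (median 0.134) in females, against 135 to 667 CPM (median 462) in males, a difference of -11.53 ± 0.34 (SE, edgeR adjusted p = 1.41e-24). Cyp2j13, a cytochrome P450 epoxygenase, was at 0.0936 to 0.608 CPM (median 0.189) in females, against 396 to 643 CPM (median 535) in males. Akr1c21, a hydroxysteroid dehydrogenase that acts on androgens, was at 0.207 to 0.575 CPM (median 0.312) in females, against 548 to 718 CPM (median 614) in males, a difference of -10.82 ± 0.16. For all 4 genes every male library was far above every female library.

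The remaining genes of the 12 highest differences were Myh1, a fast skeletal muscle myosin (6.66), Ankrd31, known for its role in meiotic recombination (6.64), the retinol dehydrogenase Rdh19 (6.63), the anion transporter Slc17a2 (6.50), the glycosyltransferase B4galnt2 (6.21), the P-type ATPase Atp13a4 (6.06), the surface protein Ly6f (5.90), the aldehyde oxidase Aox3 (5.72) and the fatty acid hydroxylase Cyp4a14 (5.35). Those of the 12 lowest were the fatty acid hydroxylases Cyp4a12a (-9.02) and Cyp4b1 (-4.85), the acyl-CoA synthetase Acsm3 (-7.35), Cyp2b10 (-6.72), the glucuronosyltransferase Ugt2b37 (-5.99), the guanylate-binding protein Gbp8 (-5.13), prothrombin, F2 (-4.63) and the S3 amino acid transporter Slc7a13 (-4.60). None of these 24 genes had overlapping ranges, against 17.1% of all autosomal genes without overlap, and all kept their direction within each run of ID numbers. They were chosen for their extreme differences in these same libraries, so both traits were close to given by the choice and are no further evidence. Myh1 was low, at 1.96 to 7.20 CPM (median 3.89) in females, against 0 to 0.180 CPM (median 0) in males. The only other skeletal muscle gene tested, Actn3, was at 0.0702 to 0.277 CPM in females and 0 to 0.118 CPM in males, and 37.9% of the 31-base words of Myh1 also occur in other genes, mainly Myh2. For Rdh19 and Gbp8 these shares were 32.1% and 31.1%. B4galnt2, Myh1, Acsm3 and Ugt1a2 overlap exons of a gene on the opposite strand. So do Slc22a12, Slc3a1, Slc7a7, Slc2a12, Slc16a7, Slc13a2, Slc34a1, Slc27a2, Ugt1a7c, Sult1a1, Pon2, Adh1, Tpmt, Nphs1, Umod, Atp11a, Bcat1, Ahr, Bcl6, Egf, Lzts2, Pzp, Igf2 and Adamts8, which are described later, so their values carry the same doubt, since whether the counting used strand is not given in the sources used here.

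**Figure D1:**
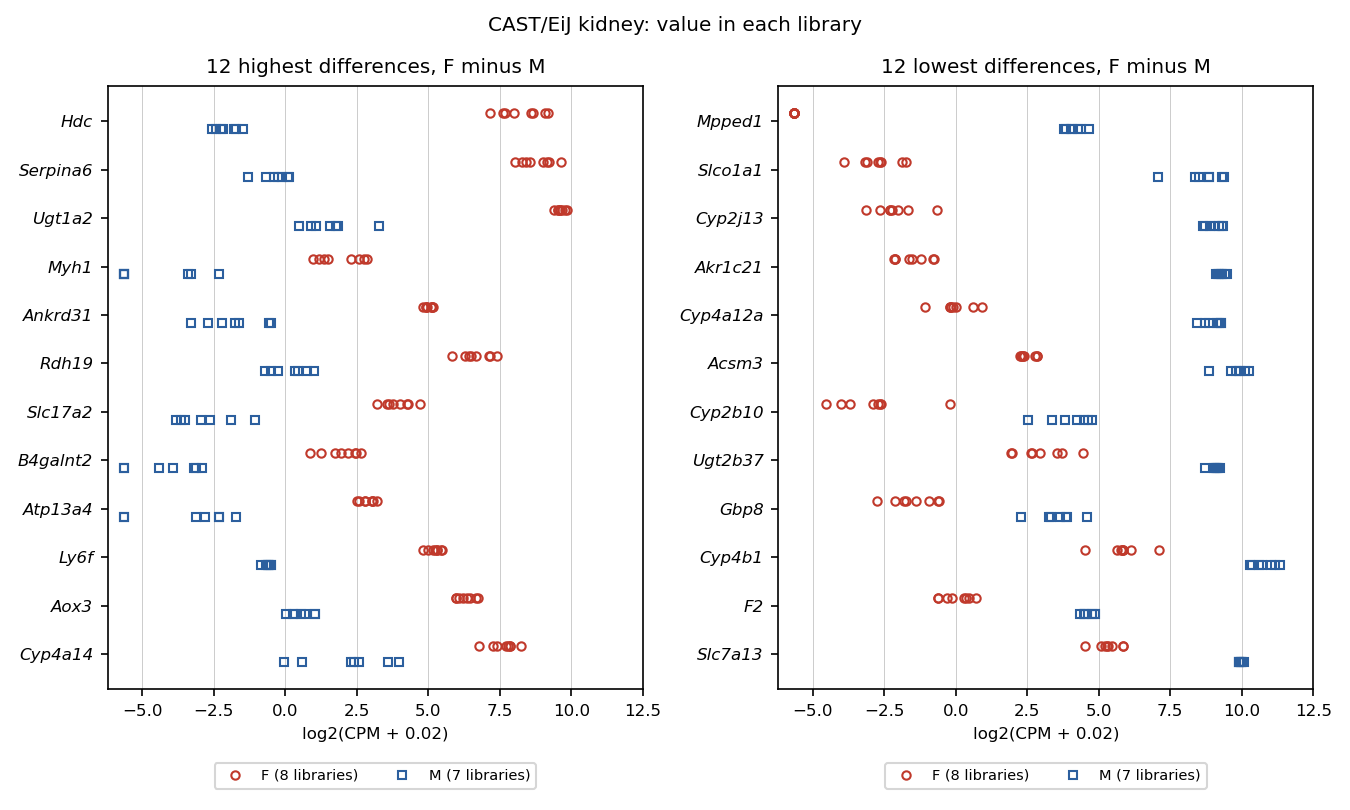
Level of the 12 genes with the highest (left) and the 12 with the lowest (right) log2 difference, female minus male, in CAST/EiJ kidney. The horizontal axis is log2(CPM + 0.02), red circles are the 8 female libraries and blue squares the 7 male libraries. The sexes do not overlap in any of the 24 genes, which were chosen for their differences in these libraries. Mpped1 had 0 counts in all 8 female libraries.

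The 250 bases before the RefSeq start of the genes at these extremes were searched on both strands for AGAACA, the core of androgen and glucocorticoid receptor sites, and for TTCNNNGAA, the motif of STAT5, the factor downstream of growth hormone and prolactin. RefSeq windows on GRCm38.p6 were matched for 9 of the 12 highest and 9 of the 12 lowest genes. AGAACA occurred in windows of 1 of the 9 higher and 2 of the 9 lower genes, and TTCNNNGAA in 1 of each, whereas 16.1% and 7.06% of 31396 autosomal windows hold them. Neither motif was in the windows of Slco1a1 (chr6:141946963-141947212, minus strand) and Akr1c21 (chr13:4573825-4574074, plus strand). Both are shown because these genes were abundant in males and close to silent in females. They are printed 5′ to 3′, in lower case since neither motif was found. The sequence is that of the C57BL/6J reference, and that of CAST/EiJ was not used here.
Slco1a1: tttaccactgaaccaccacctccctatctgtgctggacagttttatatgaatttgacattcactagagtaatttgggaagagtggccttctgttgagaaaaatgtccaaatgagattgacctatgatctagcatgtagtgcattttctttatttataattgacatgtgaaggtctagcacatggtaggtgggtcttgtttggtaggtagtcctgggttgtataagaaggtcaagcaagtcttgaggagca
Akr1c21: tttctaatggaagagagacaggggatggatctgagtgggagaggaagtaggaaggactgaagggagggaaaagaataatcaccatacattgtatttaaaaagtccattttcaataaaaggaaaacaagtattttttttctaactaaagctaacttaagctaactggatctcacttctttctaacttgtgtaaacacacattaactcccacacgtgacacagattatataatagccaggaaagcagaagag

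Transporters of organic ions moved in both directions, often with large differences between related genes. These solute carriers and exporters take drugs, toxins, urate and hormone conjugates from blood to urine. Of 23 genes of the Slc22 family tested, 9 were higher and 10 lower in females, and 82.6% were called. The shares over all autosomal genes, to be set beside this and the later lists, were 23.5% higher, 24% lower and 47.6% called. Their median difference was -0.10, against 0.05 over all autosomal genes, and turned to 0.06 with scaling to total counts. Their summed CPM was 2798 to 3753 in females and 5120 to 5784 in males.

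The 2 main organic anion uptake transporters of the basolateral membrane, which are adjacent members of the family on chromosome 19, went in opposite directions. Slc22a8 (OAT3) was at 615 to 836 CPM (median 709) in females, against 209.8 to 565 CPM (median 331) in males, a difference of 1.18 ± 0.08 (SE, edgeR adjusted p = 3.82e-15). Slc22a6 (OAT1) was at 399 to 676 CPM (median 519) in females, against 1102 to 1369.7 CPM (median 1257) in males, a difference of -1.21 ± 0.07 (edgeR adjusted p = 2.29e-18). Neither gene had overlapping sexes. Slc22a12, the urate transporter of the brush border, fell by 1.86 and Slc22a7 (OAT2) by 1.30, to 98.2 to 159.6 CPM (median 124) in females, against 222 to 351 CPM (median 313) in males. Slc22a2 (OCT2), the uptake transporter of organic cations, was lower with a difference of -1.09 ± 0.07, as was Slc47a1 (MATE1), which exports such cations to urine, at -0.84 ± 0.04. Slc22a22, a prostaglandin transporter, was at 0.299 to 4.09 CPM (median 1.25) in females, against 27.9 to 36.7 CPM (median 30.5) in males.

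Within the Slc22 genes of chromosome 19 (6535845 to 8628299), 3 of 9 were higher and 6 lower in females, and direction alternated from gene to gene over 5 successive members. In chromosome order, Slc22a26 had a difference of -3.85 ± 0.25, Slc22a27 of 4.69 ± 0.15, Slc22a28 of -4.07 ± 0.13, Slc22a29 of 4.43 ± 0.17 and Slc22a30 of -4.02 ± 0.18 (SE). Slc22a28 was the most abundant in males, at 24.7 to 72.3 CPM (median 59.2) in females, against 634 to 1079 CPM (median 936) in males. Slc22a27 was at 43.1 to 65.8 CPM (median 51.3) in females, against 1.31 to 3.89 CPM (median 1.84) in males. Each of the 5 had male and female libraries that did not overlap. Shared sequence limits these values: 68.2% of the 31-base words of Slc22a28 also occur in other genes, mainly Slc22a30, and 46.9% of those of Slc22a27, mainly Slc22a29. The shares were 44% for Slc22a29 and 42.9% for Slc22a30, which were less abundant than their partners. Mean levels were 6.16 CPM in females and 0.289 CPM in males for Slc22a29, and 0.892 and 14.5 CPM for Slc22a30. Both members of each of these pairs went the same way, so how much each member of a pair changed is uncertain. Counts from the partner could also affect the direction of Slc22a29 and Slc22a30, which was not tested.

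The promoter windows of 3 of these neighbours show how alike they are. They are printed because Slc22a28 and Slc22a30 were called lower in females and Slc22a29, which lies between them, higher. The directions of Slc22a29 and Slc22a30 carry the doubt given above. The windows are the 250 bases before the RefSeq start on GRCm38.p6, minus strand, at chr19:8131983-8132232 for Slc22a28, chr19:8405106-8405355 for Slc22a30 and chr19:8218901-8219150 for Slc22a29. Capitals mark bases not identical to Slc22a28 in a pairwise global alignment. Slc22a30 shared 238 of 250 bases with Slc22a28 and Slc22a29 shared 183, against 147 for Slc22a27, 158 for Slc22a26, 136 for Slc22a8 and 142 for Slc22a6.
Slc22a28: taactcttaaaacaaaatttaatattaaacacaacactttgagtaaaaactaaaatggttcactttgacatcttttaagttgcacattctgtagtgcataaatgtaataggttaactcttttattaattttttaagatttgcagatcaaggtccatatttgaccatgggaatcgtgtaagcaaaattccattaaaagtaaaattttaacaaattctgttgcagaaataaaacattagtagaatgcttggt
Slc22a30: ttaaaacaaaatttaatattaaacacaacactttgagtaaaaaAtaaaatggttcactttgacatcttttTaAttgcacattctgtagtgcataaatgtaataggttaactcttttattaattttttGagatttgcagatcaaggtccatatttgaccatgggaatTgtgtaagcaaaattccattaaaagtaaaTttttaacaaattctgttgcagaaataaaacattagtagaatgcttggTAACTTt
Slc22a29: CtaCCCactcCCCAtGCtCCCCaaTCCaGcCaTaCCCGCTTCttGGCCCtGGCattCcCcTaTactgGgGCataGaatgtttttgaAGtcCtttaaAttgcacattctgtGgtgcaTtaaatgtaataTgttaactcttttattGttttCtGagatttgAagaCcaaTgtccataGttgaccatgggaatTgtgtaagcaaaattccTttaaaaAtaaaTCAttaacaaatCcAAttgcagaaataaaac

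Organic anion polypeptides and multidrug exporters also split, with 8 of 19 higher and 7 lower. Abcc3 (MRP3), an exporter of conjugated organic anions, was at 162 to 207 CPM (median 189) in females, against 7.97 to 12.7 CPM (median 9.25) in males, a difference of 4.26 ± 0.14 (edgeR adjusted p = 2.41e-24). Abcc1 (MRP1) was 0.92 ± 0.06 higher, at 46.4 to 64.8 CPM (median 52.6) in females, against 25.5 to 30.8 CPM (median 27.9) in males. Abcc2 (MRP2), the apical exporter, had overlapping libraries and a difference of -0.34 ± 0.08. Besides Slco1a1, the uptake transporters Slco4c1 (-2.42 ± 0.14), Slco3a1 (-1.33 ± 0.06) and Slco1a6 (-0.49 ± 0.08) were lower in females.

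Carriers of nutrients changed less. Of 20 sugar and monocarboxylate transporters, 13 were higher and 4 lower, with a median of 0.30, and 1 gene, which was lower, exceeded a 2-fold change. That gene was Slc5a8, which recovers lactate and other monocarboxylates, at 137 to 226 CPM (median 188) in females, against 546 to 757 CPM (median 666) in males, a difference of -1.81 ± 0.07 (edgeR adjusted p = 2.64e-23). The glucose carriers Slc5a1 (SGLT1) and Slc2a4 (GLUT4), the mannose and fructose carrier Slc5a9, and Slc2a12 were 0.45, 0.50, 0.56 and 0.72 higher. Of these, Slc5a1 had overlapping libraries, at 139 to 213 CPM in females and 111 to 156 CPM in males. Slc16a7, a monocarboxylate carrier, and Slc5a12, a lactate carrier, rose by 0.43 and 0.36, with overlapping libraries. Within ID runs 77, 81 and 89 taken alone, the difference of Slc5a12 was 0.41, 0.44 and 0.11. Slc5a3, the inositol carrier, had a called difference of 0.33 ± 0.13, which was not called when any 1 of 9 of the 15 libraries was left out. The call was also lost in the Wald test of DESeq2 and without the ID run in the model.

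Among 28 amino acid transporters, 13 were higher and 7 lower, with a median of 0.16. The 2 largest changes were in related carriers with opposite direction. Slc7a13, a cystine and acidic amino acid carrier of the S3 brush border, was at 22.8 to 57.7 CPM (median 39.6) in females, against 946 to 1087 CPM (median 1003) in males, a difference of -4.60 ± 0.13 (edgeR adjusted p = 3.74e-26). Slc7a12 was at 378 to 590.2 CPM (median 483) in females, against 26.3 to 112 CPM (median 52.8) in males, a difference of 3.16 ± 0.32. Neither gene had overlapping sexes. Slc6a18, a carrier of neutral amino acids, was higher at 0.65 ± 0.05, as were Slc7a7 (0.70 ± 0.08), the basolateral exporter of cationic amino acids, and Slc1a5 (0.51 ± 0.07). Slc36a1, which takes up small amino acids with protons, had -0.69 ± 0.05, and Slc38a3, the glutamine carrier used in acid excretion, -1.14 ± 0.19. Slc3a1, the heavy subunit of the cystine carrier, had a difference of -0.17 ± 0.04, which was not called with scaling to total counts. Within ID runs 77, 81 and 89 taken alone it was -0.23, -0.12 and -0.16.

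Phosphate, sulfate, bicarbonate, vitamin and water carriers of the proximal tubule gave 9 higher and 12 lower of 27, with a median of -0.07 that turned to 0.09 with scaling to total counts. On chromosome 13 the neighbours Slc17a1 and Slc17a3, which export urate and organic anions, were lower, at -1.18 ± 0.07 and -1.11 ± 0.10, next to Slc17a2 at 9.35 to 26.5 CPM (median 14.8) in females, against 0.0512 to 0.458 CPM (median 0.109) in males. Slc34a1, the main phosphate carrier, was at 2159 to 3021 CPM (median 2559) in females, against 2893 to 3389 CPM (median 3105) in males, a difference of -0.27 ± 0.05. Slc4a4, which returns bicarbonate to blood, had -0.49 ± 0.05, while the water channel Aqp1 and the citrate carrier Slc13a2 were higher, at 0.36 ± 0.04 and 0.68 ± 0.10. Lrp2 (megalin), the endocytic receptor for filtered proteins, overlapped between the sexes at 4938 to 7649.5 CPM (median 6134) in females, against 5174 to 5942 CPM (median 5261) in males. Its difference of 0.19 ± 0.07 was not called without female replicate 3 on 44% fat.

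Xenobiotic-metabolizing enzymes first oxidize foreign compounds and steroids and then conjugate them. Of 26 cytochrome P450 genes of the Cyp2 family, 8 were higher, 7 lower and 11 not called. These shares are not far from the 23.5% higher and 24% lower of all autosomal genes. The summed level of the family was 1490 to 1862 CPM in females, against 5256 to 7179 CPM in males. Cyp2e1, which oxidizes ethanol and small solvents, made up most of that sum in males, at 302 to 416 CPM (median 322) in females, against 3145 to 4959 CPM (median 4648) in males, a difference of -3.72 ± 0.13 (edgeR adjusted p = 2.64e-23). Cyp2j5, an arachidonic acid epoxygenase of the kidney, was at 203 to 376 CPM (median 316) in females, against 599 to 693 CPM (median 625.5) in males. Cyp2d9, with 34.8% of its 31-base words found in other genes, had a difference of -4.51 ± 0.26 and Cyp2d26 one of 1.84 ± 0.11 in the opposite direction. Cyp2a5, a coumarin hydroxylase that shares 54.6% of its 31-base words with other genes, was higher at 1.25 ± 0.22 with overlapping libraries.

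Enzymes of the Cyp4 family, which hydroxylate fatty acids, gave 7 higher and 4 lower of 15, and 8 of those 11 differed at least 2-fold. In the cluster on chromosome 4 (115106323 to 115647723), Cyp4a12a was at 0.455 to 1.87 CPM (median 0.890) in females, against 344 to 624 CPM (median 565) in males, and its near copy Cyp4a12b at 2.99 to 11.1 CPM (median 4.78) in females, against 16.6 to 50.8 CPM (median 37.5) in males. These 2 genes share 62.2% and 62.9% of their 31-base words with each other, so their separate levels are uncertain, though both were lower. Cyp4a14 was at 109 to 299.8 CPM (median 216) in females, against 0.961 to 15.8 CPM (median 5.30) in males, and Cyp4a10 at 451 to 856 CPM (median 687) in females, against 87.7 to 308 CPM (median 213) in males. Cyp4b1 at the far end was at 23.0 to 138 CPM (median 56.6) in females, against 1244 to 2603 CPM (median 1687) in males. All of these ranges were apart between the sexes. Cyp4a10 shares 44.9% of its words with other genes, mainly Cyp4a32. Outside the cluster, Cyp4f14 had a difference of 4.25 ± 0.17, at a low level. Of 15 other Cyp genes, 6 were higher and 2 lower (1 without female replicate 2 or male replicate 1 on 10% fat or male replicate 4 on 44% fat, and 3 without female replicate 4 on 44% fat), with Cyp3a13 at 2.09 ± 0.18 and Cyp7b1, which clears oxysterols and androgen metabolites, at -2.62 ± 0.20.

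Glucuronosyltransferases attach glucuronic acid to drugs, bilirubin and steroids. Of 17 tested, 6 were higher and 9 lower, and 12 of these differed at least 2-fold. In the Ugt2 cluster of chromosome 5, Ugt2b34 was the 1 gene of 5 that was higher, at 139 to 201 CPM (median 163) in females, against 19.5 to 33.7 CPM (median 25.6) in males. Ugt2b37 was at 3.84 to 22.1 CPM (median 7.02) in females, against 418 to 610.5 CPM (median 552) in males, and Ugt2b38 at 28.8 to 81.6 CPM (median 51.4) in females, against 411 to 733 CPM (median 563) in males. Their separate levels are uncertain, since 34.4% of the 31-base words of Ugt2b37 and 52.9% of those of Ugt2b38 occur in other genes, mainly Ugt2b5. In the Ugt1a cluster of chromosome 1, whose genes share their last exons, 4 of 9 were higher and 4 lower. There Ugt1a7c was at 24.3 to 55.9 CPM (median 42.6) in females, against 290.1 to 331 CPM (median 315) in males, opposite to Ugt1a2, and 55.7% and 65.1% of their 31-base words occur in other genes. Ugt3a2 was 1.04 ± 0.05 higher. Ugt8a, which makes galactosylceramide, was at 18.8 to 29.5 CPM (median 23.3) in females, against 120.0 to 278 CPM (median 173) in males, a difference of -2.93 ± 0.12.

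**Figure D2:**
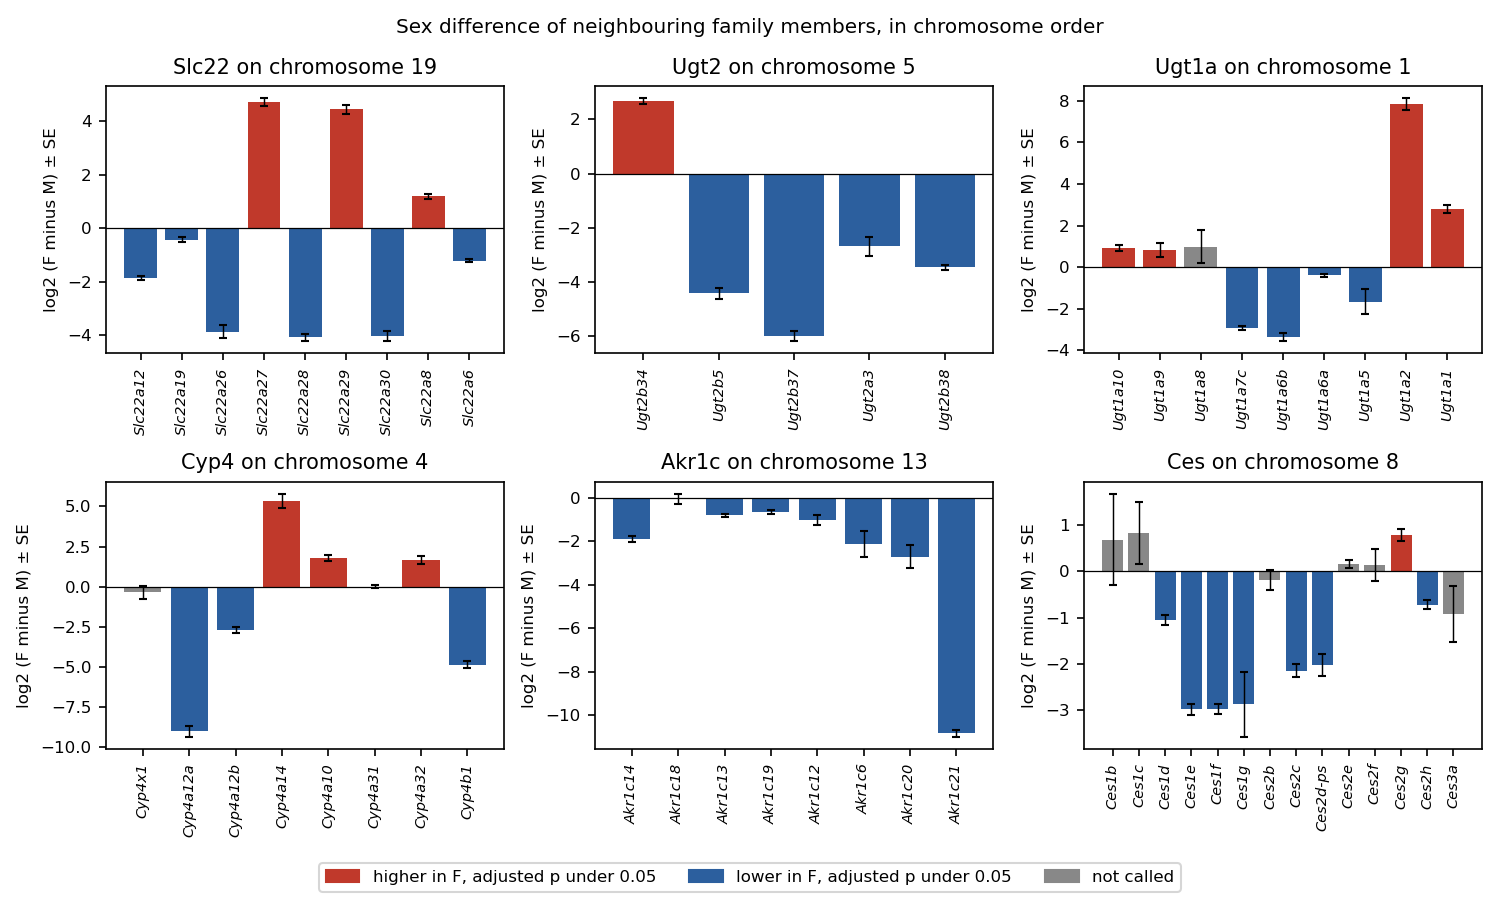
Log2 difference, female minus male, of neighbouring members of 6 gene families in CAST/EiJ kidney, in chromosome order. Bars are the fitted difference with its SE, red for called higher in females, blue for called lower and grey for not called. Direction alternates over Slc22a26 to Slc22a30, and within the Ugt2, Ugt1a and Cyp4 clusters bars of both signs stand side by side, while 7 of 8 Akr1c genes are lower.

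More sulfotransferases and glutathione transferases were called higher than lower in females, though the summed levels of both lists overlapped. The sums were 760 to 912 CPM in females and 680 to 845 CPM in males for sulfotransferases. For glutathione transferases they were 1925 to 2279 CPM in females and 1554 to 1971 CPM in males. Of 7 sulfotransferases, 4 were higher and none lower, with the phenol sulfotransferase Sult1a1 at 77.8 to 139 CPM (median 114) in females, against 14.7 to 30.0 CPM (median 17.7) in males, and Sult1b1 at a difference of 0.98 ± 0.17. Of 22 glutathione transferases, which couple electrophiles to glutathione, 15 were higher and 3 lower, with a median of 0.42. Gsta2 was at 267 to 365 CPM (median 309) in females, against 5.08 to 29.9 CPM (median 11.6) in males, a difference of 4.72 ± 0.24 (edgeR adjusted p = 5.63e-18), and Gsta4 had 2.65 ± 0.14. Gsta1 had 4.94 ± 0.18. The levels of Gsta2 and Gsta1 are uncertain, since 60.7% of the 31-base words of Gsta2 occur in other genes, mainly Gsta1, and 92.9% of those of Gsta1, mainly in Gm3776. Gstm2 and Gstt1 were higher, at 0.68 ± 0.06 and 0.81 ± 0.07. Gstp1 went the other way, at 34.1 to 42.1 CPM (median 38.1) in females, against 102 to 161 CPM (median 114) in males, and shares 38.5% of its words with Gstp2.

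Most oxidoreductases and acyl or methyl conjugating enzymes were lower, and hydrolases were called in both directions. Of 20 carboxylesterases and other hydrolases, 4 were higher, 9 lower and 7 not called, with a median of -0.45, which was -0.03 on 44% fat and -0.79 on 10% fat. Ces1f, a carboxylesterase that cleaves esters and lipids, was at 72.5 to 134 CPM (median 103) in females, against 586 to 916 CPM (median 858) in males, and Ces1e, Ces2c and Ces1d had differences of -2.98 ± 0.11, -2.15 ± 0.14 and -1.06 ± 0.11, with 50.1% of the words of Ces2c found in other genes. Ephx2, the soluble epoxide hydrolase that inactivates epoxy fatty acids, was at 66.6 to 84.4 CPM (median 73.6) in females, against 252 to 363 CPM (median 323) in males. Pon2 was -0.75 ± 0.06 and Aadac, an esterase that rose, 0.46 ± 0.05.

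Of 36 flavin monooxygenases, oxidases, dehydrogenases and reductases, 9 were higher and 22 lower, with a median of -0.50. The carbonyl reductase Cbr1, which had the lowest adjusted p among those that rose, was at 130.4 to 159.7 CPM (median 141) in females, against 5.76 to 8.32 CPM (median 7.30) in males, a difference of 4.32 ± 0.09 (edgeR adjusted p = 7.66e-32). Aox3 was at 62.1 to 106 CPM (median 78.4) in females, against 0.995 to 2.06 CPM (median 1.44) in males, and Aldh1b1 had a difference of 3.58 ± 0.12. The retinaldehyde dehydrogenases Aldh1a1 and Aldh1a7 were lower, at 56.7 to 86.7 CPM (median 82.2) in females, against 381 to 557 CPM (median 478) in males for Aldh1a1 and a difference of -3.91 ± 0.16 for Aldh1a7. Fmo5 had -3.19 ± 0.13 and Adh1, alcohol dehydrogenase, -1.40 ± 0.12. Of 8 Akr1c genes on chromosome 13, 7 were lower and none higher, among them Akr1c14 at -1.90 ± 0.12.

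Of 20 acyl, acetyl and methyl conjugating enzymes, 2 were higher and 13 lower, with a median of -0.66 and a summed level of 3935 to 5260 CPM in females, against 8574 to 12117 CPM in males. Acsm2, which activates benzoate and related acids for glycine conjugation, was at 617 to 1034 CPM (median 765) in females, against 3194 to 5298 CPM (median 4649) in males, a difference of -2.56 ± 0.08 (edgeR adjusted p = 1.53e-27). Acsm3 was at 4.74 to 7.12 CPM (median 5.15) in females, against 462 to 1208 CPM (median 955) in males. Glyat, the glycine conjugating enzyme, had -0.69 ± 0.07. Inmt, which methylates tryptamines, was at 18.6 to 94.4 CPM (median 49.8) in females, against 198 to 300.0 CPM (median 279) in males, Tpmt, which methylates thiopurines, had -0.52 ± 0.05, and Ggt1, which starts the breakdown of glutathione conjugates in the brush border, -1.22 ± 0.06.

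Markers of most nephron segments other than the proximal tubule were modestly higher in females. Podocyte genes were higher for 10 of 11 and lower for none, where 23.5% of all autosomal genes were higher, and their median was 0.53, against 0.05 over all autosomal genes. The slit diaphragm gene Nphs1 (nephrin) was at 31.4 to 44.2 CPM (median 36.8) in females, against 21.5 to 27.2 CPM (median 23.9) in males, and Podxl, a podocyte surface sialomucin, had a difference of 0.53 ± 0.05. Genes of the thin limb were higher for 8 of 9 (median 0.56), of the thick ascending limb and macula densa for 15 of 16 (0.42), of the distal convoluted and connecting tubule for 11 of 16 (0.45), of principal cells for 11 of 14 (0.47) and of intercalated cells for 15 of 16 (0.41). The summed CPM of the thin limb list overlapped between the sexes, at 1054 to 1307 in females and 1038 to 1165 in males. Those of the thick limb (8416 to 10696 and 7845 to 9268) and of principal cells (1012 to 1461 and 822 to 1137) also overlapped. Sums of the podocyte, distal and intercalated cell lists did not. All these lists were drawn up with earlier results of these data known, so their counts are no independent evidence of a direction. These libraries are of whole tissue, in which fewer cells of a type and less RNA per cell cannot be told apart.

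Single markers had differences of this size. Slc12a3, the thiazide-sensitive salt carrier of the distal convoluted tubule, was at 584 to 683 CPM (median 634) in females, against 367 to 528 CPM (median 406) in males, a difference of 0.58 ± 0.06 (edgeR adjusted p = 1.16e-11). Slc12a1, the furosemide-sensitive carrier of the thick ascending limb, had 0.45 ± 0.07, Umod (uromodulin) 0.20 ± 0.05, and both had overlapping libraries. The proton pump subunit Atp6v1b1 of intercalated cells was at 65.5 to 73.6 CPM (median 68.1) in females, against 41.3 to 56.2 CPM (median 46.2) in males, and the ammonia channels Rhbg and Rhcg had 0.68 ± 0.07 and 0.48 ± 0.06, though 60.8% of the words of Rhbg occur elsewhere. The sodium channel subunits Scnn1a and Scnn1b of principal cells had 0.49 ± 0.06 and 0.45 ± 0.05. Aqp4, the basolateral water channel, stood out in that list at 97.1 to 134 CPM (median 116) in females, against 30.6 to 44.0 CPM (median 35.8) in males, a difference of 1.63 ± 0.12. The urea transporter Slc14a2, the calcium channel Trpv5 and the distal tubule gene Tmem52b were higher by 0.62, 0.66 and 0.56. Exceptions were Cldn10, a paracellular channel, at -0.56 ± 0.06, Cnnm2, a magnesium transport protein, at -0.29 ± 0.04, and Akr1b3, the aldose reductase that makes sorbitol, at 58.4 to 136 CPM (median 118) in females, against 184 to 287 CPM (median 268) in males.

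The lists of proximal tubule markers differed by segment. Both lists were drawn up with earlier results of these data known, so they are no independent evidence of a difference between segments. Of all autosomal genes, 23.5% were higher and 24% lower. Of 17 markers of S1 and S2, 9 were higher and 4 lower, with a median of 0.19 and overlapping sums of 23049 to 30584 CPM in females and 22959.7 to 24899 CPM in males. Of 15 markers of S3, 4 were higher and 10 lower, with a median of -0.43, and their sum was 5098 to 6163 CPM in females, against 9974 to 11856 CPM in males. In the 3 runs of ID numbers taken alone, 7, 8 and 9 of the S3 markers were lower. The direction within S3 was not shared. The aminoacylase Acy3 was at 297 to 452 CPM (median 329) in females, against 1399 to 2210.3 CPM (median 1895) in males, the lipid flippase Atp11a at 400.1 to 540.3 CPM (median 454) in females, against 1724 to 2915 CPM (median 2296) in males, and Slc27a2, which takes up fatty acids, had a difference of -0.61 ± 0.06, whereas Gsta2 and Bcat1, the branched-chain aminotransferase, were among those higher. Bcat1 was at 62.7 to 88.8 CPM (median 76.8) in females, against 6.53 to 11.1 CPM (median 10.1) in males. In S1 and S2, the oxidase Nox4 (0.85 ± 0.09), the inositol oxygenase Miox (0.51 ± 0.06) and the gluconeogenic enzyme Pck1 (0.52 ± 0.12) were higher and the transcription factor Hnf4a (-0.35 ± 0.05) lower.

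Markers of other cells moved with the segments in part. Endothelial genes were higher for 9 of 11 (median 0.27) and fibroblast, mesangial and smooth muscle genes for 8 of 11 (0.34), or 5 without the female library that stood apart. Of 11 macrophage genes none was higher and 2 were lower (1 when any 1 of 7 libraries was left out), with sums of 183 to 262 CPM in females and 199 to 267 CPM in males. Of 14 tubular injury genes 7 were higher and 2 lower, and their sum, 1461 to 3245 CPM in females against 748 to 1100 CPM in males, came mostly from Spp1 (osteopontin), which the thick limb also makes, at 1278 to 2715 CPM (median 1652) in females, against 599.7 to 862 CPM (median 724) in males. Clu was at 50.1 to 313 CPM (median 68.1) in females, against 30.2 to 82.8 CPM (median 54.6) in males, with the highest value in the library that stood apart. Of the genes of B and plasma cells (10 tested), none was called, of T cells 1 of 8 was lower, of adipocytes 1 of 9 was lower, of hepatocytes 2 of 8 were higher and 1 lower, of urothelium 1 of 6 and of adrenal cortex 2 of 3 were higher, and of immediate early and heat shock genes 2 of 12 went each way. The urothelium count became 3 without female replicate 3 and 2 without male replicate 1, both on 44% fat, and 1 to 5 immediate early genes were lower as each library was left out, with 4 higher without female replicate 2 on 44% fat. The part of these cells and genes in the segment differences was not tested. Without female replicate 1 on 44% fat, counts higher in females were 10 for podocytes, 15 for the thick limb, 15 for intercalated and 10 for principal cells, and 10 S3 markers were lower.

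**Figure D3:**
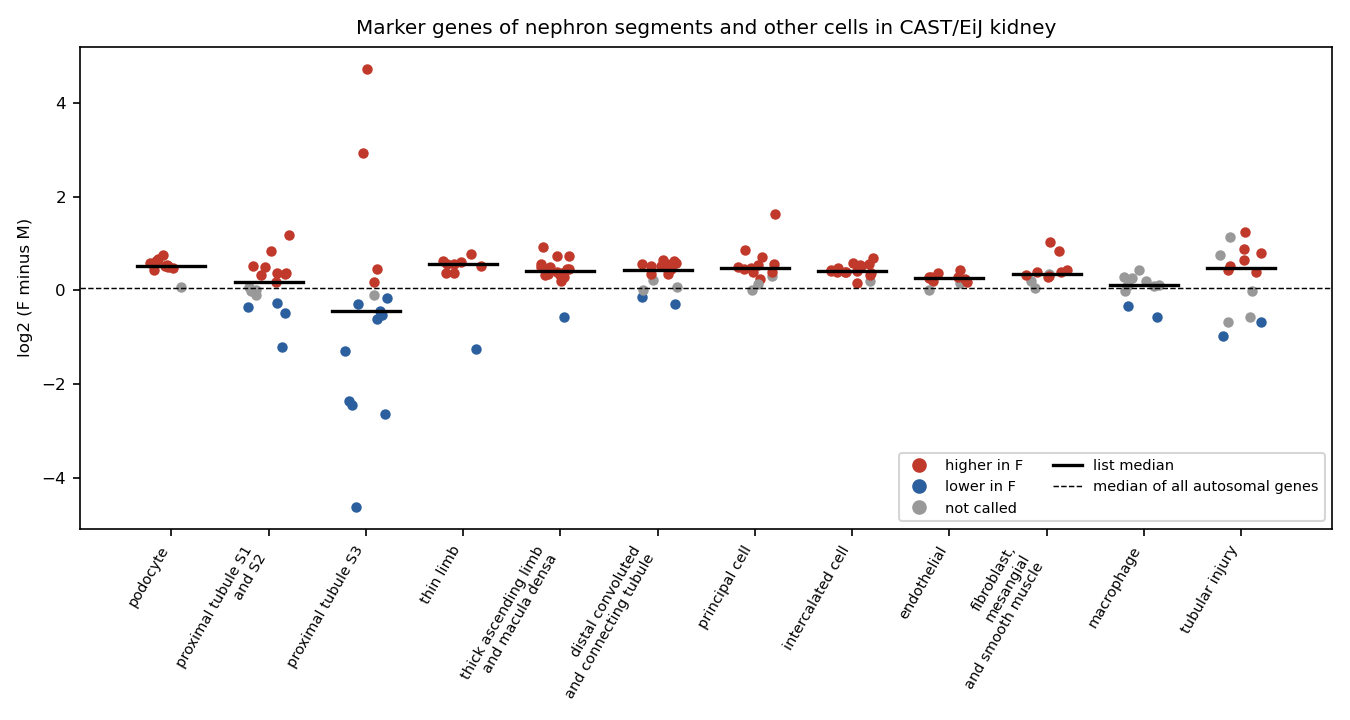
Log2 difference, female minus male, of each marker gene (point) in CAST/EiJ kidney, by list. Red points were called higher and blue points lower in females, grey points were not called, thick bars are list medians and the dashed line is the median over all autosomal genes (0.05). Points of the podocyte, limb, distal and collecting duct lists lie mostly near their medians of 0.41 to 0.56, whereas those of S3 spread between -4.60 and 4.72.

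Hormone receptors and steroid enzymes were called in both directions. Of 28 receptors and linked regulators, 9 were higher and 8 lower, shares not far from the 23.5% and 24% of all autosomal genes, with a median of -0.04 that turned to 0.12 with scaling to total counts. The prolactin receptor Prlr was at 45.4 to 119 CPM (median 94.6) in females, against 9.90 to 14.0 CPM (median 11.5) in males, a difference of 2.86 ± 0.29 (edgeR adjusted p = 2.88e-10), and the growth hormone receptor Ghr was at 435 to 610.3 CPM (median 517) in females, against 747 to 852 CPM (median 781) in males. The xenobiotic sensors Nr1i2 (PXR) and Ahr were higher, at 1.08 ± 0.09 and 0.60 ± 0.08. Esr1, the estrogen receptor, had -0.35 ± 0.09, a call lost with scaling to total counts. Bcl6, a repressor under growth hormone control in liver, was at 10.4 to 32.3 CPM (median 15.3) in females, against 15.8 to 119.8 CPM (median 44.7) in males, a difference of -1.70 ± 0.51 that was not called without male replicate 3 on 10% fat. Of 20 steroid metabolism genes 7 were higher and 9 lower, with Hsd17b2, which inactivates estradiol and testosterone, at 2.28 to 4.38 CPM (median 3.198) in females, against 14.8 to 23.0 CPM (median 16.9) in males, and Hsd17b11 and Hsd17b4 at -1.27 ± 0.13 and -0.91 ± 0.04. Hsd11b2, which keeps cortisol-like steroids from the mineralocorticoid receptor, was higher at 0.55 ± 0.07.

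Of 20 genes listed as androgen-raised in mouse kidney, 15 were lower in females and 2 higher, with a median of -1.64. Kap, the kidney androgen-regulated protein, was the most abundant of them, with a difference smaller in size than the median of the list, at 8108 to 11342 CPM (median 10516) in females, against 13495 to 18106 CPM (median 16993) in males, a difference of -0.70 ± 0.07 (edgeR adjusted p = 1.22e-10). Odc1, ornithine decarboxylase, was at 370.4 to 691 CPM (median 480.0) in females, against 1108 to 3638 CPM (median 2635) in males, with 31.3% of its words found elsewhere. The 2 that went the other way were the diamine oxidase gene Aoc1 and Egf, which androgen is known to raise in the mouse submandibular gland. That is another organ, so Egf is a doubtful member of this kidney list. Egf was at 1857 to 2532 CPM (median 2468) in females, against 1588 to 2177 CPM (median 1693) in males, with overlapping libraries. Of 13 genes known as higher in female mouse kidney, 8 were higher and 2 lower, the exceptions being Slc22a7 and Ugt8a. Both lists were drawn up with earlier results of these data known, so their counts are no independent evidence of a direction.

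A change of the sex difference with diet was called for few genes, and how large a change could be detected was not assessed. On 10% fat 6220 genes (34.2%) were called between the sexes and on 44% fat 6102 (33.5%), while the difference between these differences was called for 9 genes (0.0495%), 3 with a higher difference on 44% fat (0.0165%) and 6 with a lower one (0.033%), with 1405 at an unadjusted p under 0.05. Of the 9, Slc22a8 was at 655, 675, 810.1 and 713 CPM in females and 244, 229.6 and 209.8 CPM in males on 10% fat, and at 615, 705, 836 and 782 CPM in females and 414, 443, 331 and 565 CPM in males on 44% fat. Its sex difference was 0.74 ± 0.11 on 44% fat and 1.62 ± 0.13 on 10% fat (SE, edgeR adjusted p of the change = 0.0259). The male libraries on 44% fat were all above those on 10% fat, while the female libraries of the diets overlapped. Ugt2b38 was at 44.4, 39.5, 46.0 and 28.8 CPM in females and 592, 733 and 723 CPM in males on 10% fat. On 44% fat it was at 56.8, 77.3, 81.6 and 58.7 CPM in females and 494, 507, 563 and 411 CPM in males. Female libraries on 44% fat were all above and male libraries all below those on 10% fat, with a sex difference of -2.85 ± 0.15 on 44% fat and -4.09 ± 0.16 on 10% fat (edgeR adjusted p = 0.00865).

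Gsto1 and Gstt3, both glutathione transferases, Scnn1b and Lzts2 were higher in females mainly on 10% fat. Gsto1 was at 72.2, 71.0, 77 and 74.2 CPM in females and 49.8, 41.8 and 44.4 CPM in males on 10% fat, without overlap. On 44% fat it was at 76.4, 67.3, 79.3 and 82.8 CPM in females and 78.2, 87.3, 72.4 and 64.9 CPM in males, which overlapped. The sex difference on 44% fat and on 10% fat was 0.02 and 0.71 for Gsto1, 0.00 and 0.53 for Gstt3, 0.21 and 0.70 for Scnn1b, and 0.05 and 0.58 for Lzts2. Slc10a1, a bile acid carrier, had 2.07 ± 0.32 on 44% fat and -0.15 ± 0.33 on 10% fat at low levels. The other two, Iqch and Serpinb9b, were near the limit of detection, and both are named although they fall outside the rule for named genes. All of these calls were lost under some alternative: leaving out 1 library gave 0 to 16 called genes, with 0 without male replicate 2 on 10% fat and 16 (5 higher, 11 lower) without female replicate 1 on 44% fat, the library that stood apart, and a fit of the CAST/EiJ libraries alone gave 0.

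**Figure D4:**
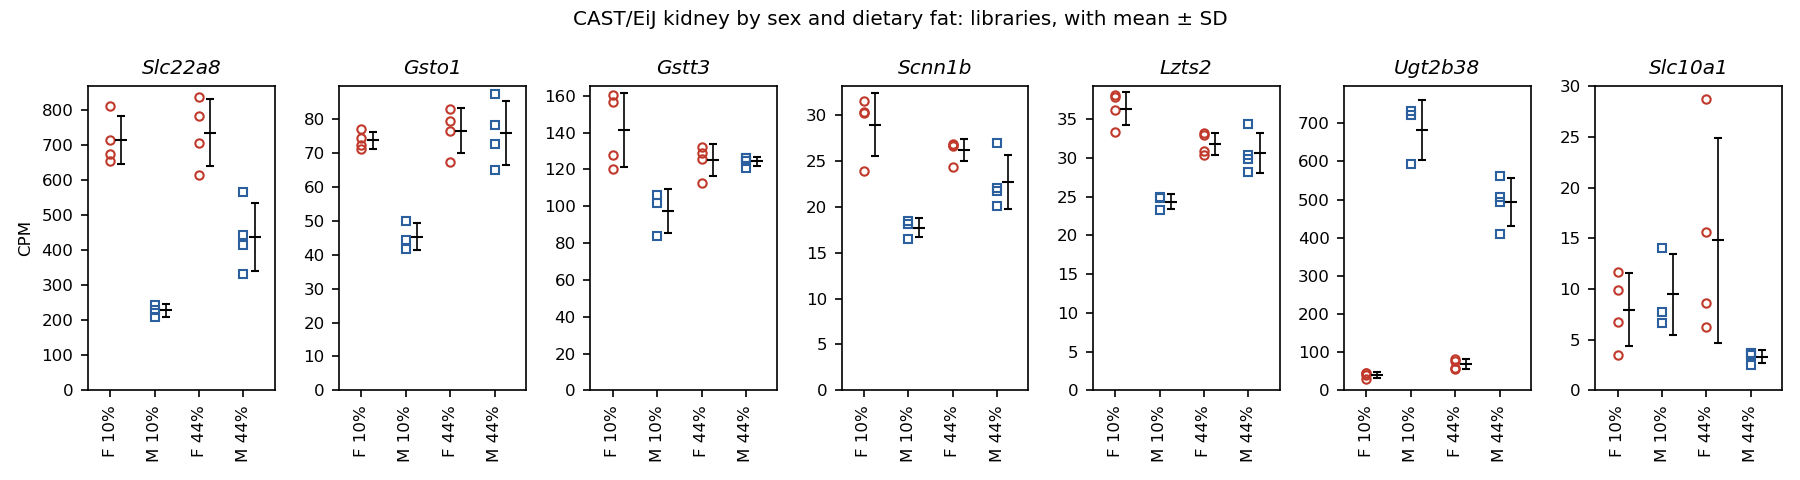
CPM of 7 genes whose sex difference changed with diet in CAST/EiJ kidney, for females and males on 10% and then 44% fat. Symbols are libraries (4, 3, 4 and 4 per group), and the line and bars beside them are the mean ± SD. Males on 10% fat have the lowest mean for Slc22a8, Gsto1, Gstt3, Scnn1b and Lzts2.

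The size of the sex difference in CAST/EiJ was set beside that in the other strains with interaction tests in the same model. The interaction was called for 2422 genes (13.3%) against C57BL/6J, with CAST/EiJ having the higher difference for 1093 (6.01%) and the lower for 1329 (7.3%), and for 2614 genes (14.4%) against NZO/HlLtJ, higher for 1197 (6.58%) and lower for 1417 (7.79%). Both tests use the same CAST/EiJ libraries, so they are not independent. For 123 genes the sexes differed by a called amount in both CAST/EiJ and C57BL/6J with CAST/EiJ females higher and C57BL/6J females lower, and for 174 the other way round. Against NZO/HlLtJ these counts were 116 and 143.

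Akr1c21 had the lowest interaction against C57BL/6J, -9.90 ± 0.19 (SE, edgeR adjusted p = 4.36e-32). Its sex difference was -10.82 ± 0.16 in CAST/EiJ, -0.91 ± 0.10 in C57BL/6J and -6.40 ± 0.12 in NZO/HlLtJ. Females were at 0.207 to 0.575 CPM (median 0.312) in CAST/EiJ, 481 to 649.5 CPM (median 563) in C57BL/6J and 5.61 to 14.7 CPM (median 8.75) in NZO/HlLtJ. Males were at 548 to 718 CPM (median 614) in CAST/EiJ, 739 to 1217 CPM (median 1048) in C57BL/6J and 593 to 913 CPM (median 738) in NZO/HlLtJ. The female levels of the strains did not overlap, with CAST/EiJ at the low end. Pzp, an alpha-macroglobulin protease inhibitor, had the highest, 8.28 ± 0.18, and in CAST/EiJ was at 728 to 1009.9 CPM (median 893) in females, against 1955 to 2141 CPM (median 2084) in males. In C57BL/6J females it was at 0.192 to 0.621 CPM (median 0.413) and in NZO/HlLtJ females at 0.716 to 1.42 CPM (median 0.910). Slc7a13 likewise differed less in CAST/EiJ (-4.60 ± 0.13) than in C57BL/6J (-9.62 ± 0.17) or NZO/HlLtJ (-8.77 ± 0.16), with females at 22.8 to 57.7 CPM (median 39.6) in CAST/EiJ against 0.511 to 2.81 CPM (median 1.42) in C57BL/6J. Hdc differed more in CAST/EiJ, by 6.12 ± 0.63 against C57BL/6J and 5.47 ± 0.62 against NZO/HlLtJ, and so did Aox3, by 4.97 ± 0.31 and 5.003 ± 0.33.

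Some transporters and enzymes differed between the sexes in one direction in CAST/EiJ and in the other elsewhere. Slc22a7 was lower in CAST/EiJ females (-1.30 ± 0.18) and higher in NZO/HlLtJ females (1.36 ± 0.18), at 169 to 237 CPM (median 200) in NZO/HlLtJ females against 25.5 to 119.7 CPM (median 101) in males. In C57BL/6J it was not called (0.24 ± 0.17). Ugt3a2 was higher in CAST/EiJ females (1.04 ± 0.05) and lower in C57BL/6J (-0.78 ± 0.05) and NZO/HlLtJ females (-1.02 ± 0.05). Bcat1, at 2.92 ± 0.20 in CAST/EiJ, had -2.18 ± 0.18 in C57BL/6J and 0.35 ± 0.17 in NZO/HlLtJ, where it was not called. Aldh1a1, at -2.59 ± 0.09 in CAST/EiJ, had 1.23 ± 0.10 in C57BL/6J and -1.68 ± 0.08 in NZO/HlLtJ. Cyp2a5 and Slc38a3 also had opposite called directions in CAST/EiJ and C57BL/6J, and Aqp4 in CAST/EiJ and NZO/HlLtJ.

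Others had a sex difference that was wide in CAST/EiJ and was narrow, not called or at very low levels elsewhere. Slc22a26 had 0.46 ± 0.22 in C57BL/6J, not called, and -0.53 ± 0.22 in NZO/HlLtJ, against -3.85 ± 0.25 in CAST/EiJ. Prothrombin, F2, was at 0.623 to 1.61 CPM (median 1.05) in females, against 20.2 to 29.4 CPM (median 23.0) in males in CAST/EiJ and at or below 0.621 CPM in every C57BL/6J and NZO/HlLtJ library. Its contrast with NZO/HlLtJ, -5.99, was larger in size than the CAST/EiJ difference itself. The fitted F2 difference in NZO/HlLtJ thus had the opposite sign, at these low levels. Olfm3 had -4.48 ± 0.18 in CAST/EiJ and -0.12 ± 0.08 and -0.12 ± 0.08, neither called, in C57BL/6J and NZO/HlLtJ. Alox15, a lipoxygenase, was at 5.10 to 27.4 CPM (median 15.5) in females, against 0.373 to 1.14 CPM (median 0.591) in males in CAST/EiJ and at or below 0.391 CPM elsewhere. The reverse held for Igf2, not called in CAST/EiJ at 1.03 to 2.45 CPM (median 2.01) in females, against 0.970 to 1.62 CPM (median 1.17) in males, which was at 334 to 517 CPM (median 407) in NZO/HlLtJ females against 1.30 to 2.10 CPM (median 1.39) in males, though 61.9% of its words occur in other genes. Hrg and Adamts8 were not called in CAST/EiJ either and were called in both other strains. Prlr differed less in CAST/EiJ, by -2.17 ± 0.37 and -2.67 ± 0.38, with females at 45.4 to 119 CPM (median 94.6) against 254 to 463 CPM (median 383) in C57BL/6J.

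By list, 8 of 23 Slc22 genes had a lower and 0 a higher sex difference in CAST/EiJ than in C57BL/6J. Against NZO/HlLtJ these counts were 8 and 1. Over all autosomal genes the shares were 7.3% lower and 6.01% higher against C57BL/6J, and 7.79% and 6.58% against NZO/HlLtJ. A lower difference can be a wider fall or a smaller rise in females, and the family holds genes of both directions. Of 16 thick limb genes, 0 had a higher and 4 a lower difference against C57BL/6J, and 0 and 7 against NZO/HlLtJ. The medians of that list were 0.42 in CAST/EiJ, 0.43 in C57BL/6J and 0.70 in NZO/HlLtJ. For S3 the medians were -0.43, -0.28 and -0.15, and for the androgen-raised genes -1.64, -2.41 and -2.27 in CAST/EiJ, C57BL/6J and NZO/HlLtJ. Podocyte, principal and intercalated cell medians lay between 0.41 and 0.65 in all 3 strains. Of the 5 successive Slc22 genes, Slc22a27 to Slc22a30 were called in the same alternating directions in all 3 strains, whereas Slc22a26 was not.

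**Figure D5:**
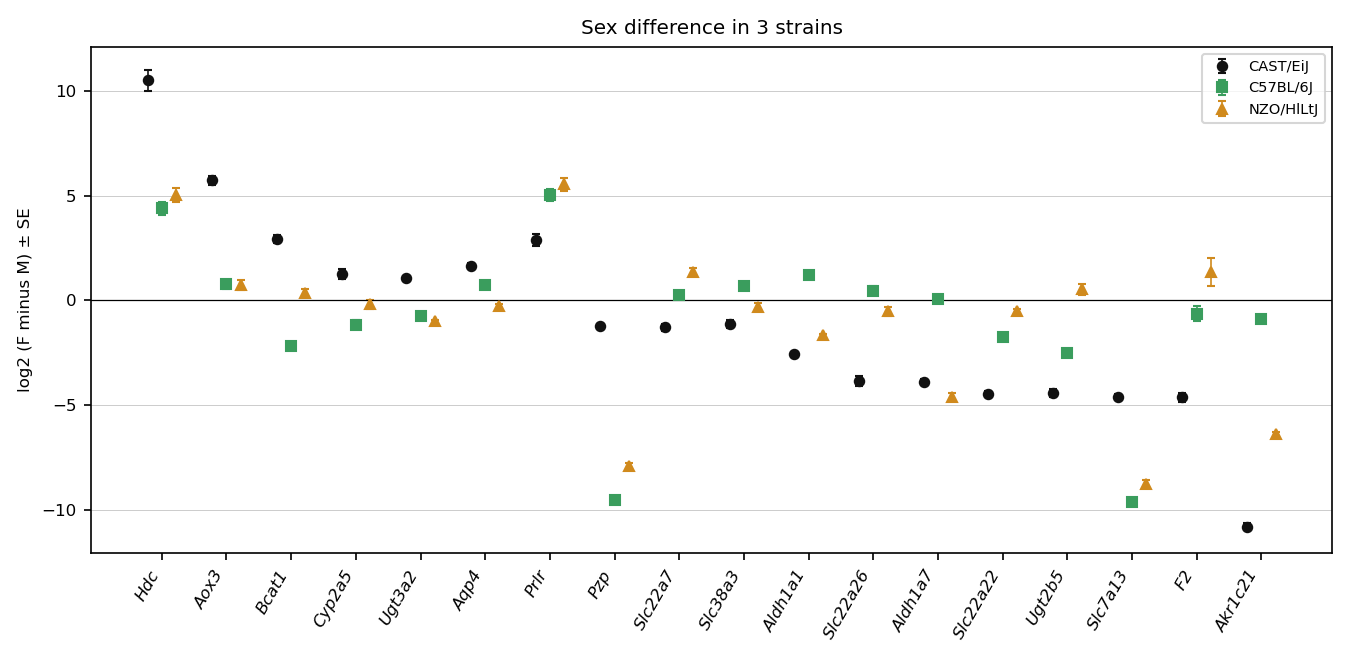
Sex difference (log2, female minus male, ± SE) of 18 genes in kidney of CAST/EiJ (black circles), C57BL/6J (green squares) and NZO/HlLtJ (orange triangles). Hdc and Aox3 differ most in CAST/EiJ, Pzp and Slc7a13 least, and Bcat1, Ugt3a2, Slc22a7 and Aldh1a1 lie on opposite sides of 0 in CAST/EiJ and at least 1 other strain.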

How the data were processed

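Kidney mRNA was sequenced as 100 bp read pairs from a polyA-selected library, with a target of 30 M pairs per sample, per the labels' protocols. The matrices were used as deposited by the authors, one of expected counts and one of variance-stabilized log2 values, each with a row per gene. GRCm38 and DESeq2 are named in the submitters' processing notes. The aligner, the counting tool and its strand setting are not given in the sources used here. Of the deposited count values 21.0% were not whole, and all were rounded.

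Genes passing filterByExpr of edgeR (minimum count 10) entered the fit, 18786 of 22474, of which 18195 are autosomal. The model was edgeR 4.0.16 in R 4.3.3, a robust quasi-likelihood fit with TMM scaling over all 47 libraries, with 12 group means and the ID run as an additive term (33 residual df). Sex differences are the mean over both diets, and strain and diet contrasts are differences of sex differences. P-values were adjusted by Benjamini-Hochberg over all genes tested. CPM are rounded counts over the TMM-scaled library total. On simulated counts (18624 genes in the fit) the sex comparison recovered 68%, 86%, 98% and 100% of 50 genes each changed 1.25-, 1.5-, 2- and 4-fold. The changed genes were drawn only from the better expressed ones. All other genes had no sex difference, and no effect of the ID run was simulated. These rates therefore do not hold for genes at low levels or for data in which many genes differ. Alternatives were DESeq2 1.42.0, limma 3.58.1 with voom or on the deposited log2 values, other scaling and filters, single ID runs and each library left out.

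Named genes were the 12 highest and 12 lowest differences among well-measured called autosomal genes, up to 6 members of each of 38 lists by adjusted p and the 2 most abundant, and the 3 highest and lowest interactions. Adh1, Akr1c14, Bcl6, Cyp2a5, Esr1, Fmo5, Gstt3, Odc1, Slc13a2, Slc22a2, Slc22a26, Slc38a3, Aoc1, Iqch and Serpinb9b were chosen after their values were seen, as were members shown only in the plot of gene clusters. Some genes that the rule names are not reported here. The members and lists were chosen with earlier results of these data known. Shared sequence was the percent of a gene's 31-base exon words found in other genes.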

Additional observations from a re-analysis of the deposited data

Results flagged for a closer look

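Among 540 groups of 4 libraries looked at (the values of the named genes and the list sums, by sex and diet), 43 held a highest or lowest library that stood apart from the other 3 by Dixon's criterion, which flags about 1 in 20 groups by chance. Males on 10% fat, with 3 libraries, could not be looked at in this way. No explanation was weighed for any of them.

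In female replicate 1 on 10% fat, Acsm3 was at 5.13 CPM, against 6.88 to 7.12 in the other 3. Aldh1a1 was at 56.7 CPM, against 78.6 to 82.9 in the other 3. Aldh1a7 was at 8.02 CPM, against 12.2 to 12.4 in the other 3. Aox3 was at 106 CPM, against 62.1 to 68.1 in the other 3. Cyp2d26 was at 51.8 CPM, against 71.1 to 74.8 in the other 3.

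In female replicate 2 on 10% fat, Nr1i2 was at 7.13 CPM, against 9.40 to 9.67 in the other 3. The summed principal cell list was at 1461 CPM, against 1169.8 to 1213 in the other 3. The summed immediate early and heat shock list was at 1482 CPM, against 533 to 691 in the other 3.

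In female replicate 3 on 10% fat, Akr1b3 was at 58.4 CPM, against 119 to 131 in the other 3. Clu was at 50.1 CPM, against 55.8 to 56.8 in the other 3. Cyp4a12a was at 0.455 CPM, against 0.854 to 0.919 in the other 3.

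In female replicate 4 on 10% fat, Adh1 was at 260.0 CPM, against 424 to 443 in the other 3. Akr1c14 was at 15.1 CPM, against 18.8 to 19.4 in the other 3. Cyp2j5 was at 203 CPM, against 311 to 317 in the other 3. Gsta4 was at 76.96 CPM, against 42.4 to 48.2 in the other 3. Pzp was at 728 CPM, against 957 to 979.8 in the other 3. Slc12a1 was at 2292 CPM, against 1799 to 1851 in the other 3.

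In female replicate 1 on 44% fat, Ahr was at 17.0 CPM, against 10.8 to 11.5 in the other 3. Atp13a4 was at 5.67 CPM, against 8.15 to 8.37 in the other 3. Clu was at 313 CPM, against 79.4 to 113 in the other 3. Egf was at 1857 CPM, against 2409 to 2493 in the other 3. Fmo5 was at 46.98 CPM, against 22.1 to 25.03 in the other 3. Slco4c1 was at 3.25 CPM, against 2.63 to 2.73 in the other 3. Spp1 was at 2715 CPM, against 1714 to 1816 in the other 3. The summed distal convoluted and connecting tubule list was at 2999.9 CPM, against 3498 to 3595 in the other 3. The summed fibroblast, mesangial and smooth muscle list was at 817 CPM, against 516 to 567 in the other 3. The summed urothelium list was at 35.3 CPM, against 5.27 to 7.67 in the other 3. The summed tubular injury list was at 3245 CPM, against 1968 to 2044 in the other 3.

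In female replicate 2 on 44% fat, Cyp2b10 was at 0.842 CPM, against 0.0424 to 0.139 in the other 3. The summed skeletal muscle list was at 0.0702 CPM, against 0.169 to 0.186 in the other 3.

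In female replicate 3 on 44% fat, Scnn1b was at 24.4 CPM, against 26.7 to 26.9 in the other 3.

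In female replicate 4 on 44% fat, Cldn10 was at 108 CPM, against 87.8 to 90.3 in the other 3. Cyp4b1 was at 138 CPM, against 49.8 to 57 in the other 3.

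In male replicate 1 on 44% fat, Myh1 was at 0.0746 CPM, against 0 in the other 3. Slc5a3 was at 665 CPM, against 943 to 952 in the other 3.

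In male replicate 4 on 44% fat, Cyp4a12b was at 32.8 CPM, against 48.1 to 50.8 in the other 3. Hrg was at 68.5 CPM, against 35.3 to 38.3 in the other 3. Kap was at 13495 CPM, against 16576 to 16993 in the other 3. Slc22a7 was at 222 CPM, against 330.3 to 351 in the other 3. Slc7a12 was at 112 CPM, against 26.3 to 34.9 in the other 3. Ugt1a2 was at 9.58 CPM, against 1.40 to 2.11 in the other 3. The summed thick ascending limb and macula densa list was at 9268 CPM, against 7872 to 7987 in the other 3. The summed principal cell list was at 1137 CPM, against 892 to 928 in the other 3.

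By the interaction test, the sex difference differed between strains for 23 named genes. They are listed because they passed an edgeR adjusted p of 0.05, so the passing itself is no result. Both tests use the same CAST/EiJ libraries. The values are the log2 sex difference (female minus male) of CAST/EiJ minus that of C57BL/6J and then minus that of NZO/HlLtJ. For some genes CAST/EiJ had the higher difference. They were 6.12 and 5.47 for Hdc, 4.97 and 5.0 for Aox3, 5.01 and 4.17 for Slc7a13 and 1.82 and 2.05 for Ugt3a2. Further values were 5.11 and 2.58 for Bcat1, 0.91 and 1.92 for Aqp4, 8.28 and 6.65 for Pzp and 6.37 and 3.38 for Hrg. Further values were 4.75 and 5.36 for Alox15 and 2.44 and 1.44 for Cyp2a5. For others it had the lower difference. They were -9.90 and -4.42 for Akr1c21, -3.99 and -5.99 for F2, -4.31 and -3.32 for Slc22a26 and -1.53 and -2.66 for Slc22a7. Further values were -3.81 and -0.90 for Aldh1a1, -1.80 and -0.83 for Slc38a3, -6.12 and -7.44 for Igf2 and -4.37 and -4.36 for Olfm3. Further values were -3.03 and -5.19 for Adamts8, -2.72 and -3.97 for Slc22a22, -1.89 and -4.94 for Ugt2b5 and -2.17 and -2.67 for Prlr. Aldh1a7 had -3.94 against C57BL/6J and 0.70 against NZO/HlLtJ. The sex difference on 44% fat minus that on 10% fat was past the threshold for 7 genes of the report above the level filter. It was 2.23 for Slc10a1, 1.24 for Ugt2b38, -0.88 for Slc22a8, -0.69 for Gsto1, -0.53 for Lzts2, -0.50 for Scnn1b, -0.53 for Gstt3 (log2).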

How the results depend on the processing

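Of 213 values of named genes, 210 were past the adjusted p of 0.05. Most of these genes were chosen by their differences or adjusted p in these data, so that share follows largely from the choice. Of the 210, 166 kept direction and call under every alternative that covered them, while 44 lost the call at least once, mostly within ID run 77 or, for the diet change, on leaving out a library. The single ID runs covered 157 of the 210 and the fit of the CAST/EiJ libraries alone 164. Neither held the strain contrasts, and the single runs did not hold the diet change. Values that turned were those of Hrg, 0.0525 within ID run 89 and -0.39 to 0.24 on leaving out each library (0.24 without male replicate 2 on 10% fat), of Adamts8, -0.35 within ID run 77 and -0.0081 to 0.13 on leaving out each library (-0.0081 without female replicate 2 on 44% fat), and of Lrp2, -0.0142 within ID run 89. Hrg and Adamts8 were not called to begin with.

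With at least a 2-fold change required as well, 1042 genes differed between the sexes (569 higher, 473 lower), 1020 on 10% fat (521, 499) and 923 on 44% fat (517, 406). The diet change then had 4 (1 lower), the contrast with C57BL/6J 503 (243 higher, 260 lower) and that with NZO/HlLtJ 544 (242, 302). Scaling to total counts, added after the data were seen, gave 7342 higher and 2162 lower between the sexes, 5372 and 1611 on 10% fat, and 4972 and 1669 on 44% fat.

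Within ID runs 77, 81 and 89, which have fewer libraries (in run 77 none of the 4 residual df comes from CAST/EiJ), 2118, 5160 and 4303 genes were called (957, 2338 and 1920 higher, 1161, 2822 and 2383 lower). By diet these fits set 1 female against 1 male library in runs 77 and 81 on 10% fat and in runs 77 and 89 on 44% fat, with a spread taken from other groups, so the counts compare single libraries that are assumed to vary like those groups. On 10% fat, run 77 gave 551 (225 higher, 326 lower), run 81 2300 (940, 1360) and run 89 1810 higher. On 44% fat, run 77 gave 750 (308, 442), run 89 780 (321, 459) and run 81 1884 higher. For the diet change, 5 genes (1 higher) were called with no expression filter, 27 (12 higher, 15 lower) by the Wald test of DESeq2, 16 (7 higher) by limma-voom, 16 (8 higher) by limma on the deposited variance-stabilized values, and 0 (0 higher, 0 lower) in a fit of the CAST/EiJ libraries alone.

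Leaving out each library in turn gave 7821 to 8585 genes between the sexes (3869 to 4242 higher, 3952 to 4352 lower), 4515 to 6319 on 10% fat (2005 to 2917, 2510 to 3402), 5047 to 6123 on 44% fat (2257 to 2867, 2790 to 3277) and 0 to 16 for the diet change (0 to 5, 0 to 11). The contrast with C57BL/6J had 2169 to 2573 (988 to 1184, 1144 to 1389) and that with NZO/HlLtJ 2308 to 2612 (1110 to 1234, 1198 to 1405). The cause of these shifts was not tested. List counts of 5 or fewer moved most: immediate early genes had 1 to 5 lower, distal tubule and macrophage genes 1 lower without any of 7 libraries, and urothelium 3 higher without female replicate 3 on 44% fat. No paired analysis was possible because the labels give no replicate numbers, and those used here only follow the order of the samples. Depth limits genes under about 1 CPM, where a few counts decide a value.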
